A study of Mus musculus with 12 samples.

Results

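The collagen chain genes of the mouse optic nerve were read from a table of raw read counts by their symbols, each made of Col, a number, the letter a and a second number. Of 35275 genes in the table, 44 carried such a symbol, and the 42 with 10 or more counts in at least 3 of 12 libraries are described here. They comprised 11 fibrillar chains, the 6 basement membrane chains Col4a1 to Col4a6 and 25 other chains. The collagen symbols outside this set were Col10a1 and Col19a1. The study sequenced poly(A) RNA from optic nerves of mice that model neurofibromatosis type 1 (NF1), with 6 libraries from mice given phosphate-buffered saline (PBS), 3 from mice given carboplatin, a platinum drug that cross-links DNA, and 3 from mice given selumetinib, an inhibitor of the MEK kinases. The labels do not state whether PBS 1 to 3 and PBS 4 to 6 were controls of the same experiment, and all 6 were used as 1 group. All 3 groups are labelled as NF1, so the saline libraries are controls for treatment and not for genotype. The alleles and what drives them, strain, age, sex, dose and schedule are not stated in those labels. Nor do they state that each library is a different animal, so the spread that the p-values rest on may be technical. In such bulk samples, fewer cells of a type and less RNA per cell cannot be told apart.

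Collagens are triple helices of 3 chains. Fibrillar collagens, chiefly types I, III and V, form the banded fibrils of the meningeal sheath and of the connective tissue septa that carry vessels through the optic nerve, while type IV collagen forms the sheet-like network of the basement membranes of vessels and of the astrocyte border. Other chains decorate fibrils, link them to basement membranes, form beaded filaments or hexagonal networks, or span the cell membrane. Fibroblasts, pericytes and endothelial cells are the best known sources in this tissue, but which cells held the transcripts was not measured.

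Promoter sequences are shown for 4 members on which the comparisons turn: Col3a1, the fibrillar chain with the largest relative difference among the abundant ones after carboplatin, and Col11a1, Col27a1 and Col23a1, which were called lower in carboplatin than in selumetinib. Each line gives the 250 bases before the RefSeq start site (build GRCm38.p6, plus strand), in windows free of annotated exons. Capitals mark the TATA box (searched as TATAAA), the CCAAT box (searched as CCAAT) and the GC box (searched as GGGCGG). Both strands were searched, so that ATTGG is a CCAAT box on the minus strand, and a GC box there reads CCGCCC.
Col3a1, chr1:45311288-45311537: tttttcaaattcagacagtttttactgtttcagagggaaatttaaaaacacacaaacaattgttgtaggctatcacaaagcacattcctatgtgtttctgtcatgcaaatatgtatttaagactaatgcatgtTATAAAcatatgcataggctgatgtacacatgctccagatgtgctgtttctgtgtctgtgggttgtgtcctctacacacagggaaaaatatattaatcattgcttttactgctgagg
Col11a1, chr3:114030290-114030539: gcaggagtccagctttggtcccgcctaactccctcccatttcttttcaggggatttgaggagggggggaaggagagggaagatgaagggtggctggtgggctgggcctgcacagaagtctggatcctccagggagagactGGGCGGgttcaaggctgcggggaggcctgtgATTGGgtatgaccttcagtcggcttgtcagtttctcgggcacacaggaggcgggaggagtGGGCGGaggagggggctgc
Col27a1, chr4:63215162-63215411: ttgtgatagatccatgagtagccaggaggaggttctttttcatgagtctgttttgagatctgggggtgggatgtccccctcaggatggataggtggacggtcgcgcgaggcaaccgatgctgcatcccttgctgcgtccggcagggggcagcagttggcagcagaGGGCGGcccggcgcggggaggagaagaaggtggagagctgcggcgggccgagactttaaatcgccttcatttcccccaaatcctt
Col23a1, chr11:51289670-51289919: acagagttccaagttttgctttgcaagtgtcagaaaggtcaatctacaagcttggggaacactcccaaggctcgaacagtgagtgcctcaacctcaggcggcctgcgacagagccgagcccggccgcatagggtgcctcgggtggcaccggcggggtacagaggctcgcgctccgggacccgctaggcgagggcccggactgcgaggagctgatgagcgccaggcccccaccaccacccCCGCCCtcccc
Col3a1 held TATAAA 117 bases before its start and neither of the other motifs. Col11a1 held GC boxes 110 and 19 bases before its start with CCAAT on the minus strand between them at 79 bases, Col27a1 a GC box at 85 bases, and Col23a1 a GC box on the minus strand at 11 bases. RefSeq windows were matched for 33 of the 42 members. A GC box was found for 21 of these 33 genes, CCAAT for 13 and TATAAA for 4, and the shares over all 32817 windows of the same length were 32.7%, 33.8% and 12.4%. A match is a description of the letters and no evidence of a bound factor.

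The table held 21793052 to 33375754 counts per library, and the 42 collagen genes took 0.0823% to 0.268% of them. All 42 were among the 18344 genes tested, 34 had 10 counts in every library, and 8 did not. Col24a1 and Col6a4 reached 10 counts in 0 carboplatin libraries and Col17a1 in 0 selumetinib libraries. These genes entered the set through the other groups alone, so their low levels in these libraries are no separate evidence. Oligodendrocyte markers summed to 29507 to 70738 CPM (counts scaled to a common library size) in PBS and astrocyte markers to 4527 to 14111, with no marker of either list at 0. Neuron markers summed to 63.6 to 412, although the labels name the cells nerve cells.

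Several libraries stood apart. PBS 1 was outside the range of the other PBS libraries for 35 of the 42 collagens. It held 91839 CPM of skeletal muscle markers against 53.9 to 477 in the other PBS libraries, 7132 CPM of epithelium markers (a list added after its values were seen) against 266 to 504, and 541 CPM of adipocyte markers against 0 to 5.8. Selumetinib 1 and 2 held 1436 and 1593 CPM of neuron markers against 226 in selumetinib 3, and 744 and 658 CPM of meningeal fibroblast markers against 2640. Carboplatin 2 held 533 CPM of fibroblast markers against 2003 and 2141 in carboplatin 1 and 3. Photoreceptor and pigment epithelium markers summed to 944 to 1836 CPM in carboplatin against 36.6 to 219 in PBS and 35.5 to 40.3 in selumetinib. Of these 14 markers, 3 were called higher in carboplatin than in PBS, against 1.57% of all genes. The part of any of these in the collagen values was not tested, beyond the values without a library given below.

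**Figure D1:**
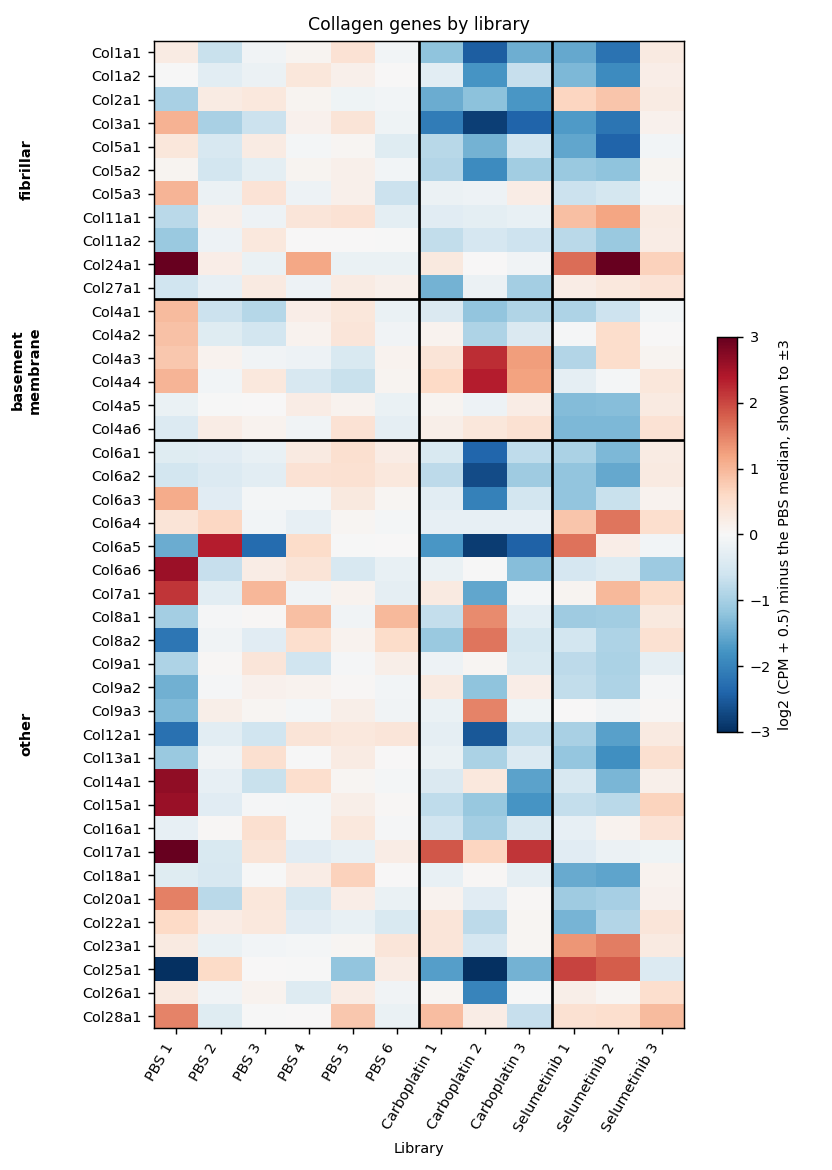
Level of each of the 42 collagen genes (rows, by class) in each of the 12 libraries (columns, by treatment), as log2 of CPM plus 0.5, minus the median of the 6 PBS libraries. The color scale ends at 3 units in each direction. Most fibrillar rows are blue in carboplatin 1 to 3 and in selumetinib 1 and 2, while selumetinib 3 is close to PBS, and PBS 1 is far from the other PBS libraries in the lower rows.

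Compared per kilobase of exon, the saline nerve held mostly chains of types I, III and VI. Col1a1, the main chain of type I collagen, was the highest at 42.9 ± 10.5 CPM per kb (SD, n = 6). It was followed by Col6a1 of the type VI beaded filament at 38.6 ± 9.62, Col1a2, the partner of Col1a1, at 31.2 ± 5.07, Col3a1 (type III) at 28.5 ± 14.7 and Col6a2 at 24.6 ± 7.61. Neighbours among these 5 differed by less than the larger of their SDs, so their order was not resolved. With the longest transcript as the length, Col1a2 led at 72.5 CPM per kb, ahead of Col3a1 at 50.3 and Col1a1 at 47.5. Below them came Col9a2, a chain of the fibril-associated type IX, at 13.1 ± 3.97. Near its level, Col4a1 and Col4a2, the ubiquitous basement membrane pair, stood at 11.5 ± 5.48 and 8.83 ± 3.43, Col11a2, a minor fibrillar chain, at 10.9 ± 3.02, and Col8a2 of the type VIII network at 8.49 ± 3.99. In carboplatin the order by the same lengths began with Col6a1 at 18.9 ± 10.5, Col1a2 at 17.8 ± 8.12, Col1a1 at 13.7 ± 5.54, Col9a2 at 13.3 ± 6.26 and Col8a2 at 12.2 ± 12.5, with Col3a1 at 4.91 ± 1.22 (n = 3). All values below are CPM, and folds compare 1 gene between groups.

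After carboplatin, the fibrillar collagens of the nerve summed to a level below that of every saline library, while the basement membrane chains did not. The difference between these classes was not tested. The summed fibrillar level was 1184 ± 251 CPM in PBS (SD, n = 6) and 500.1 ± 155 in carboplatin (n = 3). Carboplatin 1 to 3 held 629, 329 and 542 CPM and PBS from 807 to 1477, with no overlap. The sum of the 25 other chains was 831.5 ± 129 in PBS and 516.5 ± 52.6 in carboplatin, also with no overlap, while that of the 6 type IV chains was 201.1 ± 62.4 and 159.0 ± 19.9, with carboplatin inside the PBS range. In the edgeR quasi-likelihood test 1 member, Col2a1, passed at an adjusted p under 0.05. That is 2.38% of the members against 2.09% of all genes tested (0.518% called lower and 1.57% higher), so the count of calls was near the background. Of the members, 34 of 42 had a negative log2 fold change, with a median of -0.79 against -0.11 over all genes. Positive values were found for 8 members, against 40.0% of all genes. All carboplatin libraries lay below all PBS libraries for 9 members, 21.4% against 5.23% of all genes, and above them for 0 members against 6.97%. An unadjusted p under 0.05 with a lower level was found for 13 members, 31.0% against 8.43%, and with a higher level for 2, 4.76% against 8.12%. Col6a4 and Col24a1, which passed the count rule through the other groups alone, are among the 34, and Col6a4 is also among the 13. Without PBS 1, 6 members were called, 14.3% against 10.7% of all genes, and without selumetinib 3, 4 were, 9.52% against 3.08%, which bears on the calls given below for such fits. The median stayed negative, from -1.08 to -0.49, in all 26 alternative fits.

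**Figure D2:**
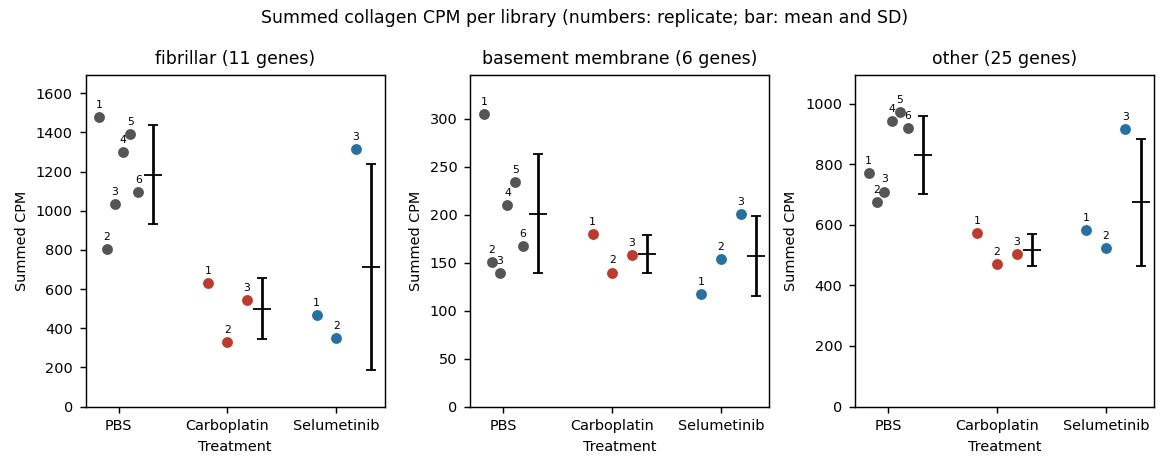
Summed CPM of the fibrillar, basement membrane and other collagen genes in each library (points, numbered by replicate) by treatment, with the mean and SD of each group as bars. The 3 carboplatin points lie below all 6 PBS points for the fibrillar and the other collagens and inside the PBS range for the basement membrane collagens, and selumetinib 3 lies apart from selumetinib 1 and 2 for the fibrillar and the other collagens.

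Col3a1, whose homotrimer forms the fine fibrils of distensible tissue and vessel walls, had the largest difference of the abundant chains. It stood at 59.9, 36.0 and 48.7 CPM in carboplatin 1 to 3 against a range of 130 to 531 in PBS (median 259). Every carboplatin library was below every PBS library, also below PBS 2, the lowest. The log2 fold change was -2.54 ± 0.61 (SE), and the edgeR adjusted p = 0.0597 missed the threshold. The call was made without PBS 1, without selumetinib 2 or without selumetinib 3, with adjusted p between 0.0150 and 0.0466 and log2 fold changes between -2.54 and -2.27.

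Neither chain of type I collagen was called, and the difference between the chains was not tested. Col1a1 stood at 119, 49.2 and 100 CPM in carboplatin and at 173 to 375 (median 276) in PBS. These groups did not overlap, and the log2 fold change was -1.65 ± 0.52 with an edgeR adjusted p = 0.142 (0.0277 without selumetinib 3). Col1a2 stood at 311, 112 and 239 CPM in carboplatin and at 308 to 485 (median 385) in PBS. Here carboplatin 1 reached the lowest PBS value, and the log2 fold change was -0.81 ± 0.44 (adjusted p = 0.391).

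Col2a1, the chain of type II collagen known from cartilage and the vitreous body, fell after carboplatin. It was a low-level gene here, at 2.21, 2.69 and 1.74 CPM in carboplatin against 3.35 to 8.95 (median 7.05) in PBS. The lowest PBS value was that of PBS 1, and the groups did not overlap. The log2 fold change was -1.63 ± 0.32 with an edgeR adjusted p = 0.0259. The call was lost when any 1 of carboplatin 1, 2 or 3, PBS 2, 4, 5 or 6 or selumetinib 1 was left out, with adjusted p between 0.0520 and 0.157 and log2 fold changes between -1.79 and -1.48. Cartilage and bone markers summed to 34.4 to 49.0 CPM in carboplatin and 17.4 to 46.3 in PBS, with the bone gene Ibsp at 0 in both, and 0 of 10 tested were called.

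Of the 3 chains of type V, which nucleates fibrils and sets their width, none was called. Col5a2 stood at 26.0, 12.7 and 23.3 CPM in carboplatin and at 32.8 to 54.0 (median 48.3) in PBS, without overlap (log2 fold change -1.14 ± 0.33, adjusted p = 0.107, and 0.0322 without selumetinib 3). Col5a1 stood at 35.2, 23.4 and 41.3 CPM against 45.2 to 80.3 (-0.91 ± 0.43, adjusted p = 0.324). Col5a3 overlapped, at 17.2 to 22.7 CPM against 12.4 to 40.4 (-0.24 ± 0.33, adjusted p = 0.752). The minor fibrillar chains Col11a1, Col11a2, Col24a1 and Col27a1 were not called either, with log2 fold changes of -0.31, -0.53, -3.18 and -0.79. Col24a1 was at or under 0.796 CPM in all carboplatin and PBS libraries but PBS 1, which held 5.35. It passed the count rule through the other groups alone, so its negative value is no separate evidence. All 11 fibrillar fold changes, that of Col24a1 included, were negative, with a median of -0.91. They were also negative under both other scalings, RLE and upper-quartile factors, and under DESeq2. With limma voom and quality weights 9 of 11 were, and 10 of 11 with PBS 4 to 6 as the only controls. The median was -1.0 against PBS 1 to 3 and -0.96 against PBS 4 to 6.

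**Figure D3:**
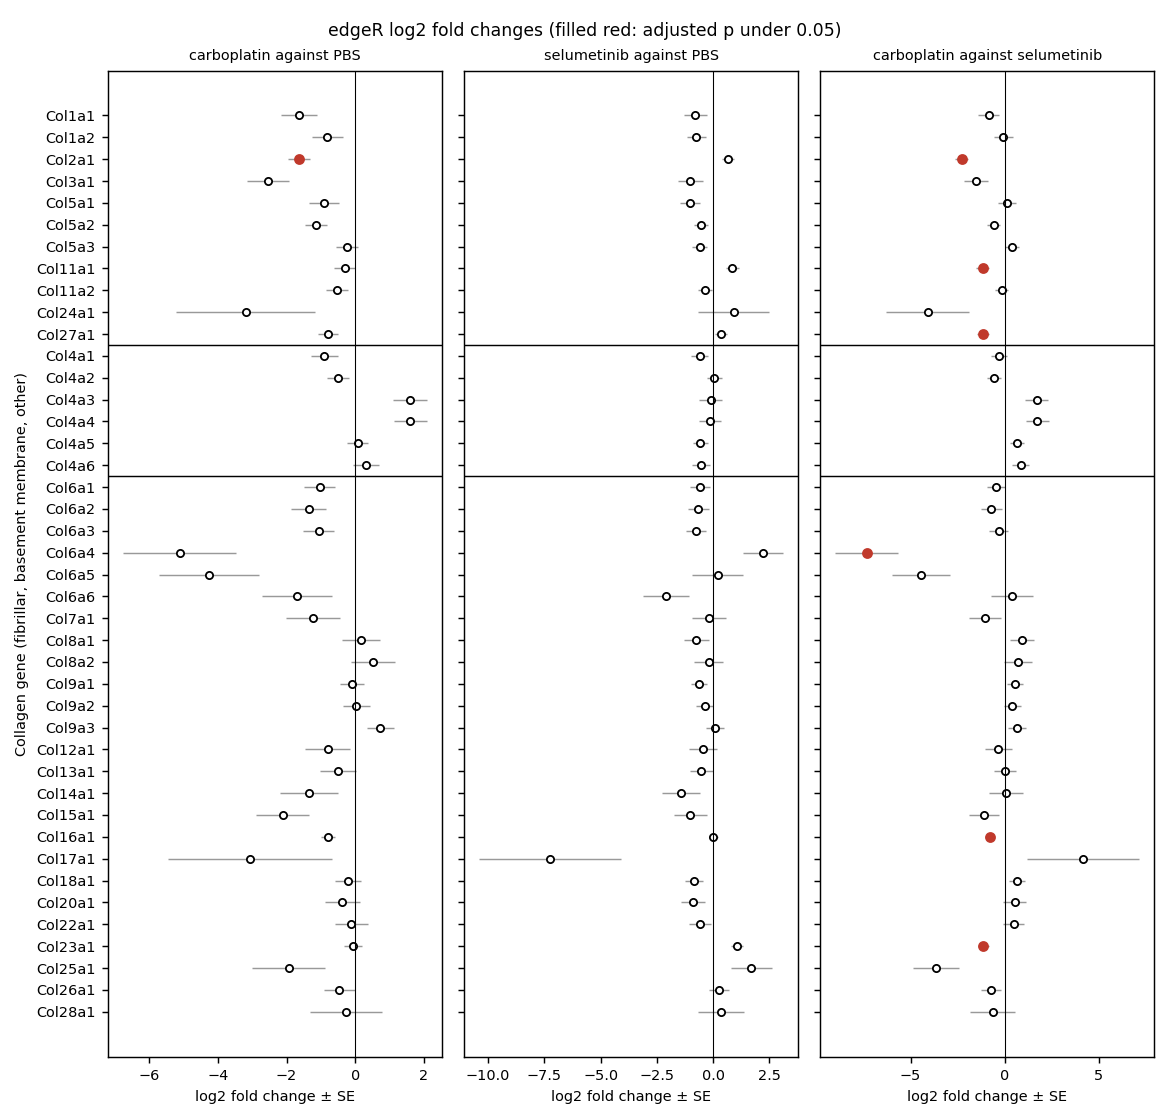
edgeR log2 fold change (point) with its SE (bar) of each of the 42 collagen genes in the 3 comparisons, with fibrillar, basement membrane and other chains separated by lines and filled red where the adjusted p is under 0.05. The horizontal scales differ between panels. All fibrillar points lie left of 0 in carboplatin against PBS, where Col2a1 is red, no point is red in selumetinib against PBS, and 6 are red in carboplatin against selumetinib.

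Of the 6 basement membrane chains, 0 were called after carboplatin in the edgeR test. At an unadjusted p under 0.05, 1 was lower and 2 were higher, against 8.43% and 8.12% of all genes. Apart from PBS were 0, against 5.23% of all genes below and 6.97% above. Mouse type IV genes lie head to head in pairs: Col4a1 and Col4a2 on chromosome 8, with start sites that overlap by 22 bases, Col4a3 and Col4a4 on chromosome 1, 71 bases apart, and Col4a5 and Col4a6 on the X chromosome, 1308 bases apart (mm10). Col4a1 stood at 58.8, 35.1 and 42.9 CPM in carboplatin and at 44.0 to 155 (median 80.8) in PBS (log2 fold change -0.91 ± 0.39, adjusted p = 0.274), and Col4a2 at 57.4, 27.8 and 39.0 against 36.3 to 98.2 (median 53.3; -0.50 ± 0.33, adjusted p = 0.485). Both overlapped with PBS.

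Col4a3 and Col4a4, chains of the mature network of kidney glomeruli and of some basement membranes of the eye, had positive values. Col4a4 stood at 3.69, 13.7 and 5.81 CPM in carboplatin and at 1.24 to 5.08 (median 2.26) in PBS (1.60 ± 0.48, adjusted p = 0.118). Col4a3 stood at 2.33, 9.46 and 4.67 CPM against 1.07 to 3.26 (median 1.67; 1.59 ± 0.50, adjusted p = 0.135). For both chains PBS 1 was the highest PBS library and overlapped carboplatin 1, and carboplatin 2 was the highest of all 12. Without PBS 1 both were called higher, with log2 fold changes of 1.90 and 1.81 and adjusted p of 0.0184 and 0.0354. Without carboplatin 2 the log2 fold changes were 0.91 and 0.95, with adjusted p of 0.512 and 0.529. Col4a3 overlaps C430014B12Rik on the opposite strand, and the strand setting of the counting is not known. Col4a5, at 32.2 to 41.8 CPM against 30.8 to 41.6, and Col4a6, at 19.3 to 23.7 against 12.6 to 22.9, differed by 0.07 and 0.32 on the log2 scale. The median of the 6 chains was 0.19, while Col4a1 and Col4a2, the most abundant of them in PBS, had negative values.

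Among the other chains, those of type VI form beaded filaments around fibrils and cells. After carboplatin 6 of 6 had negative fold changes, with a median of -1.53. Of the 6, 5 had an unadjusted p under 0.05, against 8.43% of all genes that were lower at that p. These values include Col6a4, which passed the count rule through the other groups alone, so its part in them is no separate evidence. The sum of the type VI chains was 313 to 322 CPM in PBS 1 to 3 and 462 to 530 in PBS 4 to 6, against 67.2 to 253 in carboplatin. The size of the difference therefore depended on the controls, and for Col6a2 it was -0.91 against PBS 1 to 3 and -1.70 against PBS 4 to 6. Col6a2 stood at 115, 30.3 and 94.2 CPM in carboplatin against 136 to 273 (median 203) in PBS (-1.36 ± 0.50, adjusted p = 0.209), and Col6a1 at 120, 31.2 and 97.0 against 127 to 228 (median 166; -1.03 ± 0.45, adjusted p = 0.282). Neither overlapped, and carboplatin 2 was the lowest of the 12 libraries for both chains. Col6a3 overlapped in range, at 4.61 to 16.4 CPM against 16.0 to 45.1. Col6a4 had 0 counts in every carboplatin library and at most 0.419 CPM in PBS. Against a floor of 3 counts over the group, 0.0343 CPM, its level in carboplatin was at least 4.64-fold lower than the PBS mean of 0.159. PBS held 0 to 10 counts of Col6a4 per library, so this bound rests on few reads. Col6a5 stood at 0.574, 0 and 0.167 CPM in carboplatin, and at 0.230 to 17.8 in PBS (-4.26 ± 1.46, adjusted p = 0.174). With Col6a4 set to its bound the medians of the classes could not move, since the bound still lay below them.

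Of the fibril-associated chains, 1 lay apart from PBS after carboplatin. Col16a1, which sits on fibrils of interstitial tissue, stood at 25.7, 18.6 and 27.6 CPM in carboplatin and at 32.5 to 54.1 (median 38.4) in PBS, without overlap (-0.79 ± 0.21, adjusted p = 0.0827, and 0.0206 without PBS 1). The 3 type IX chains overlapped. Col9a2 stood at 53.8, 18.9 and 50.9 CPM against 15.9 to 48.5 (median 44.3), and Col9a3 at 17.5, 57.5 and 18.3 against 7.68 to 23.0. The value of Col9a3 (0.73 ± 0.40, adjusted p = 0.391) therefore rested on carboplatin 2, and without carboplatin 2 it was -0.06. Col12a1 stood at 48.8, 9.79 and 34.7 CPM against 12.2 to 78.0. Of the 8 fibril-associated chains 6 were negative, with a median of -0.25.

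The remaining families held 1 gene apart from PBS. Col15a1, a proteoglycan collagen of basement membrane zones, stood at 8.86, 6.69 and 4.14 CPM in carboplatin against 12.1 to 95.6 (median 15.4) in PBS (-2.11 ± 0.77, adjusted p = 0.203), a difference that was -1.21 without PBS 1. Col18a1, the source of endostatin, overlapped. Col8a1 and Col8a2, which form the hexagonal network known from the cornea, stood in carboplatin 2 at 71.8 and 119 CPM, above all other libraries, and in carboplatin 1 and 3 at 16.1 to 26.6. Col8a2 had a log2 fold change of 0.52 ± 0.64, and of -0.78 without carboplatin 2. Of the transmembrane chains, Col17a1, a component of epithelial hemidesmosomes, stood at 1.97, 0.571 and 2.50 CPM in carboplatin and at 84.4 in PBS 1 against 0 to 0.393 in PBS 2 to 6. Its log2 fold change was -3.07 with PBS 1 and 3.28 without it, where it was called higher (adjusted p = 0.0336). Epithelium markers summed to 281 to 699 CPM in carboplatin and, with PBS 1 left out, to 266 to 504 in PBS.

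Selumetinib gave no collagen call against PBS. In the edgeR test 0 of 42 members and 0.00% of all genes passed, with an unadjusted p under 0.05 for 4 higher and 2 lower members (9.52% and 4.76%, against 14.0% and 10% of all genes). DESeq2 called 2 members higher, Col11a1 and Col23a1, 4.76% against 6.44% of the genes in the table. The table also holds genes below the count rule that all members passed, so these 2 shares are not alike. With limma voom and quality weights 6 were called higher and 22 lower, 66.7% against 55.4% of all genes tested. The selumetinib libraries lay below all PBS libraries for 0 members and above them for 0, against 2.70% and 3.23% of all genes. The median log2 fold change was -0.53 against -0.09 over all genes.

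The selumetinib libraries did not form 1 group in their collagens. Selumetinib 1 and 2 held 469 and 352 CPM of fibrillar chains, below every PBS library, and selumetinib 3 held 1317, inside the PBS range. For Col1a1 the 3 values were 94.9, 58.7 and 335 CPM, for Col3a1 79.2, 55.8 and 281, and for Col6a2 86.3, 68.2 and 237. The same split was seen in Col4a5, at 14.2, 14.5 and 43.2 CPM against 30.8 to 41.6 in PBS, and in Col4a6, at 6.4, 6.36 and 23.2. Col4a2 did not share it, at 51.9, 76.2 and 53.9 CPM. Endothelial markers summed to 365 and 422 CPM in selumetinib 1 and 2 and to 738 in selumetinib 3, against 649 to 891 in PBS, and pericyte markers to 239, 245 and 616 against 516 to 739. Without selumetinib 3, 11 members were called, 9 lower and 2 higher, 26.2% of the members against 21.6% of all genes called in that fit. They included Col1a1 (-1.84, adjusted p = 0.0102), Col5a1 (-1.90, 0.00449), Col4a5 (-1.28, 0.00176) and Col18a1 (-1.61, 0.00626).

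Log2 fold changes above 0.8 with selumetinib were found for 5 members. Col23a1, a transmembrane collagen, stood at 84.7, 97.5 and 40.8 CPM in selumetinib and at 29.2 to 43.5 (median 33.6) in PBS (1.07 ± 0.26, edgeR adjusted p = 0.0884, and 1.40 with 0.00232 without selumetinib 3). Col25a1, a transmembrane collagen of neurons, stood at 111, 95.6 and 20 CPM against 2.33 to 40.1 (1.70 ± 0.92, adjusted p = 0.270). Col11a1, a minor fibrillar chain, stood at 13.7, 16.7 and 8.42 CPM against 3.82 to 9.73 (0.86 ± 0.29, adjusted p = 0.128, and 0.0281 without selumetinib 3). In each of the 3 genes selumetinib 1 and 2 were above every PBS library and selumetinib 3 was not, as in the neuron markers. Col2a1, with a log2 fold change of 0.66, and Col6a4 showed the same split. Col6a4 stood at 0.566, 1.31 and 0.342 CPM against 0 to 0.419 (2.22 ± 0.89, adjusted p = 0.177), and Col24a1 at 1.34, 4.12 and 0.428 against 0 to 5.35 (0.91 ± 1.58, adjusted p = 0.729), where PBS 1 was the highest. The largest negative differences were those of Col17a1 (-7.25 ± 3.15), Col6a6 (-2.09 ± 1.04) and Col14a1 (-1.42 ± 0.84), for which PBS 1 held 84.4, 9.13 and 50.9 CPM and the other PBS libraries at most 0.393, 1.63 and 11. Of these, Col17a1 passed the count rule through PBS and carboplatin libraries alone.

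Between the drugs, 6 collagens were called lower in carboplatin than in selumetinib and none higher. They were Col2a1, Col6a4, Col23a1, Col27a1, Col16a1 and Col11a1. That is 14.3% of the members against 14.0% of all genes (8.35% called lower and 5.65% higher), so the count of calls was near the background. The 6 include Col6a4, which passed the count rule through the other groups alone. An unadjusted p under 0.05 with a lower level was found for 9 members, 21.4% against 17.9%, and with a higher level for 2, 4.76% against 13.6%. Both sides of this comparison also enter the comparisons with PBS, so these values are not independent of those above. Carboplatin lay below selumetinib without overlap for 8 members and above it for 2 (Col4a4 and Col17a1), 19.0% and 4.76% against 20.8% and 20.9% of all genes. The 9 include Col6a4, the 8 include Col6a4 and Col24a1, and the 2 include Col17a1. Each of these passed the count rule only through groups other than its low one, so it is no separate evidence. The median over the members was -0.31 against -0.01 over all genes, and of the fibrillar chains -0.86, of the type IV chains 0.74 and of the others -0.32.

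Col2a1 had the firmest difference. It stood at 2.21, 2.69 and 1.74 CPM in carboplatin and at 11.2, 12.9 and 8.42 in selumetinib, with a log2 fold change of -2.29 ± 0.35 and an edgeR adjusted p = 0.00764. It was called in all 12 fits that left out 1 library, with adjusted p up to 0.0464. Cartilage and bone markers summed to 20.2 to 45.6 CPM in selumetinib. For Col2a1 selumetinib 1 and 2 lay above every PBS library and selumetinib 3 did not, as in the neuron markers.

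The 2 other fibrillar chains called were Col27a1, at 5.23, 13.0 and 7.11 CPM in carboplatin and 17.5, 18.6 and 19.8 in selumetinib (-1.14 ± 0.33, edgeR adjusted p = 0.0429), and Col11a1, at 5.5, 5.67 and 6.04 against 13.7, 16.7 and 8.42 (-1.17 ± 0.35, adjusted p = 0.0479). Neither overlapped. Leaving out 1 library ended either call in 10 of 12 fits, with adjusted p up to 0.144 and 0.178; the libraries that kept the call when left out were PBS 1 and carboplatin 2 for Col27a1 and PBS 1 and selumetinib 3 for Col11a1. Col16a1 stood at 25.7, 18.6 and 27.6 CPM in carboplatin and 32.4, 41.3 and 51.6 in selumetinib (-0.80 ± 0.23, adjusted p = 0.0448), and its call was kept only without PBS 1 or PBS 3, with adjusted p up to 0.154 otherwise.

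The transmembrane Col23a1 stood at 43.5, 23.4 and 34.9 CPM in carboplatin and 84.7, 97.5 and 40.8 in selumetinib (-1.13 ± 0.31, edgeR adjusted p = 0.0385), so carboplatin 1 and selumetinib 3 overlapped. Its call ended when any 1 of 9 libraries was left out, all but PBS 1, PBS 2 and selumetinib 3, with adjusted p up to 0.139. Col6a4, a type VI chain that can stand in for Col6a3, overlaps Gm47575 on the opposite strand, so that with the strand setting unknown its reads may not all be its own. It was called with an adjusted p = 0.0263, and without carboplatin 1, 2 or 3 or selumetinib 1 or 2 this was 0.0761 to 0.0937. Its level in carboplatin was at least 21.6-fold lower than the selumetinib mean of 0.741 CPM, since carboplatin held 0 counts. Col6a4 passed the count rule only through PBS 2 (10 counts) and selumetinib 1 and 2 (16 and 37). The groups where it was high thus brought it into the set, and its difference rests on few reads. Col25a1 (-3.65 ± 1.23, adjusted p = 0.0691), Col6a5 (-4.47 ± 1.54, 0.0744) and Col24a1 (-4.09 ± 2.20, 0.228) lay apart without a call. Of these, Col24a1 passed the count rule through PBS and selumetinib libraries alone. Neuron markers summed to 137 to 150 CPM in carboplatin and 226 to 1593 in selumetinib. Of these markers 6 of 8 were called lower, against 8.35% of all genes. Their part in the values of Col2a1, Col6a4, Col23a1, Col25a1 and Col11a1 was not tested.

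The highest positive values between the drugs were those of Col17a1 (4.18 ± 2.97, adjusted p = 0.362), Col4a4 (1.74 ± 0.59, 0.0707) and Col4a3 (1.70 ± 0.61, 0.0836). Without PBS 1, 33.0% of all genes and 11 members (26.2%) were called. Col17a1, Col4a4 and Col4a3 were then called higher, with adjusted p of 0.0170, 0.0224 and 0.0396, and Col6a5 (0.0348) and Col25a1 (0.0201) lower. Col17a1 passed the count rule through PBS and carboplatin libraries alone, so its values here are no separate evidence. Without selumetinib 3, where 25.3% of all genes were called, Col4a5 (1.36), Col4a6 (1.73) and Col18a1 (1.41) were called higher, with adjusted p of 0.00126, 0.00259 and 0.0114, and Col25a1 lower (0.0389). In the main fit these 3 chains stood at 0.64, 0.84 and 0.64 on the log2 scale, with adjusted p of 0.250, 0.221 and 0.341.

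Ratios of 2 chains within a library do not depend on its depth and were taken after the values had been seen, as a description. The ratio of Col1a1 to Col1a2 counts was 0.384, 0.440 and 0.420 in carboplatin, 0.562 to 0.879 in PBS and 0.631, 0.568 and 0.756 in selumetinib. Carboplatin was thus below every other library. The ratio of Col3a1 to Col1a2 was 0.193, 0.322 and 0.204 in carboplatin, 0.423 to 1.38 in PBS and 0.526, 0.541 and 0.634 in selumetinib, again without overlap. Selumetinib 1 and 2, low in all these chains, kept the ratios of PBS. In type IV, Col4a1 to Col4a2 was 0.807 and 0.678 in selumetinib 1 and 2 and 1.02 or higher in the other 10 libraries. The start sites of this pair overlap on opposite strands, and the strand setting of the counting was not stated for these files.

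**Figure D4:**
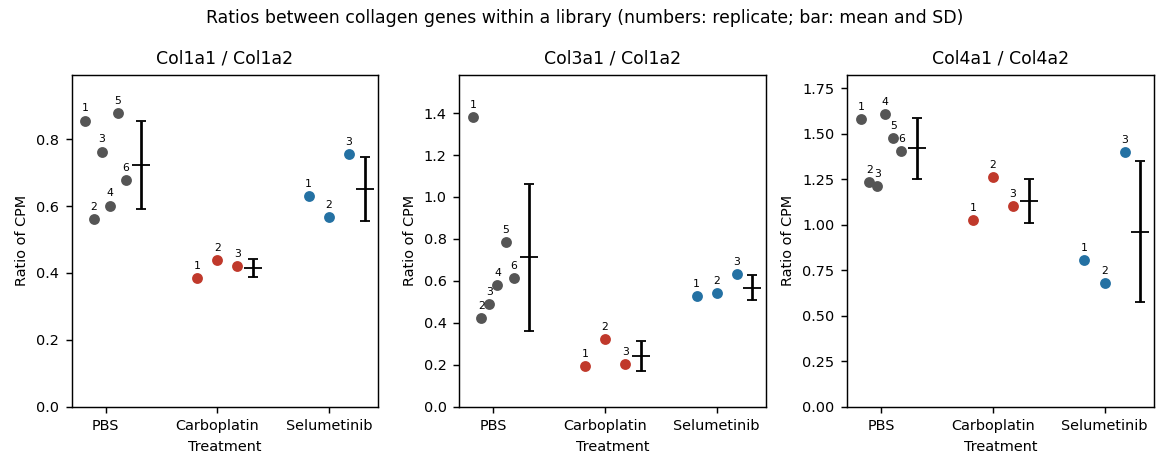
Ratio of CPM between pairs of collagen genes in each library (points, numbered by replicate) by treatment, with group mean and SD as bars. Carboplatin lies below all other libraries for Col1a1 over Col1a2 (0.384 to 0.440) and Col3a1 over Col1a2 (0.193 to 0.322), and selumetinib 1 and 2 are the lowest for Col4a1 over Col4a2.

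The genes that make, process and bind collagen are given by list, and no list was tested against the collagens. Over all genes, 0.518% were called lower and 1.57% higher after carboplatin, and 0.00% with selumetinib. Between the drugs 8.35% were called lower and 5.65% higher. These shares stand beside the calls of every list below. Of 19 genes of chain folding and modification, 0 were called in any comparison. The lowest p after carboplatin was that of P4ha1, a prolyl hydroxylase that stabilises the helix (-1.0 ± 0.24, edgeR adjusted p = 0.0632), and Serpinh1, the collagen chaperone HSP47, had -1.04 ± 0.35 (0.168). The 16 genes of propeptide processing and cross-linking summed to 3188 to 3691 CPM in carboplatin, above the 1780 to 2538 in PBS. Yet 10 of the 16 had a negative fold change, with a median of -0.19 against -0.11 over all genes. The sum therefore does not stand for most genes of the list. Of the 16, 2 lay above all PBS libraries and 5 below, against 6.97% and 5.23% of all genes. After carboplatin 2 were called lower and 0 higher. They were the procollagen C-proteinases Tll2 (-3.24 ± 0.47, 0.00606) and Tll1 (-2.20 ± 0.43, 0.0278). Tll2 stood at 0.272, 0.367 and 0.167 CPM in carboplatin against 1.30 to 3.45 in PBS. Between the drugs both were also lower, as was Pxdn, which cross-links type IV collagen (-0.84 ± 0.19, 0.0226), and Pcolce2, an enhancer of the C-proteinases, was higher (1.58 ± 0.36, 0.0221).

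Of 19 tested genes of fibril-associated matrix 0 were called in any comparison. All 19 were negative with selumetinib, led by Tnxb (-1.15 ± 0.36, edgeR adjusted p = 0.110), and 15 with carboplatin, led by Mfap5 (-1.62 ± 0.60, 0.207). Their median after carboplatin was -0.64 against -0.11 over all genes. Below all PBS libraries lay 4 of the 19, against 5.23% of all genes. Over all genes, 40.0% of fold changes were positive with carboplatin and 43.1% with selumetinib. Of 19 basement membrane partners 0 were called against PBS. Between the drugs the laminin chain Lama5 was higher in carboplatin (1.05 ± 0.30, 0.0424) and nephronectin, Npnt, lower (-0.88 ± 0.26, 0.0439). Of 11 tested collagen receptors 0 were called in any comparison, the lowest p after carboplatin being that of the integrin Itga2 (-1.82 ± 0.58, 0.144).

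Of 16 genes of collagen breakdown, the membrane-type metalloproteinase Mmp15 fell after carboplatin (-1.17 ± 0.24, edgeR adjusted p = 0.0317), from 41.6 to 88.8 CPM in PBS to 29.1, 26.6 and 24.2. The inhibitor Timp3 was higher in carboplatin than in selumetinib (1.34 ± 0.36, 0.0353). Of 17 genes of TGF-beta and fibrosis signals, 0 were called against PBS. Between the drugs 3 were higher in carboplatin, the matricellular genes Cyr61 (2.32 ± 0.41, 0.0114) and Ctgf (2.35 ± 0.70, 0.0466) and Smad3 (0.58 ± 0.17, 0.0469), and Skil, a repressor of SMAD signals, was lower (-0.68 ± 0.12, 0.0113). With selumetinib 0 genes of these 7 lists were called against PBS.

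**Figure D5:**
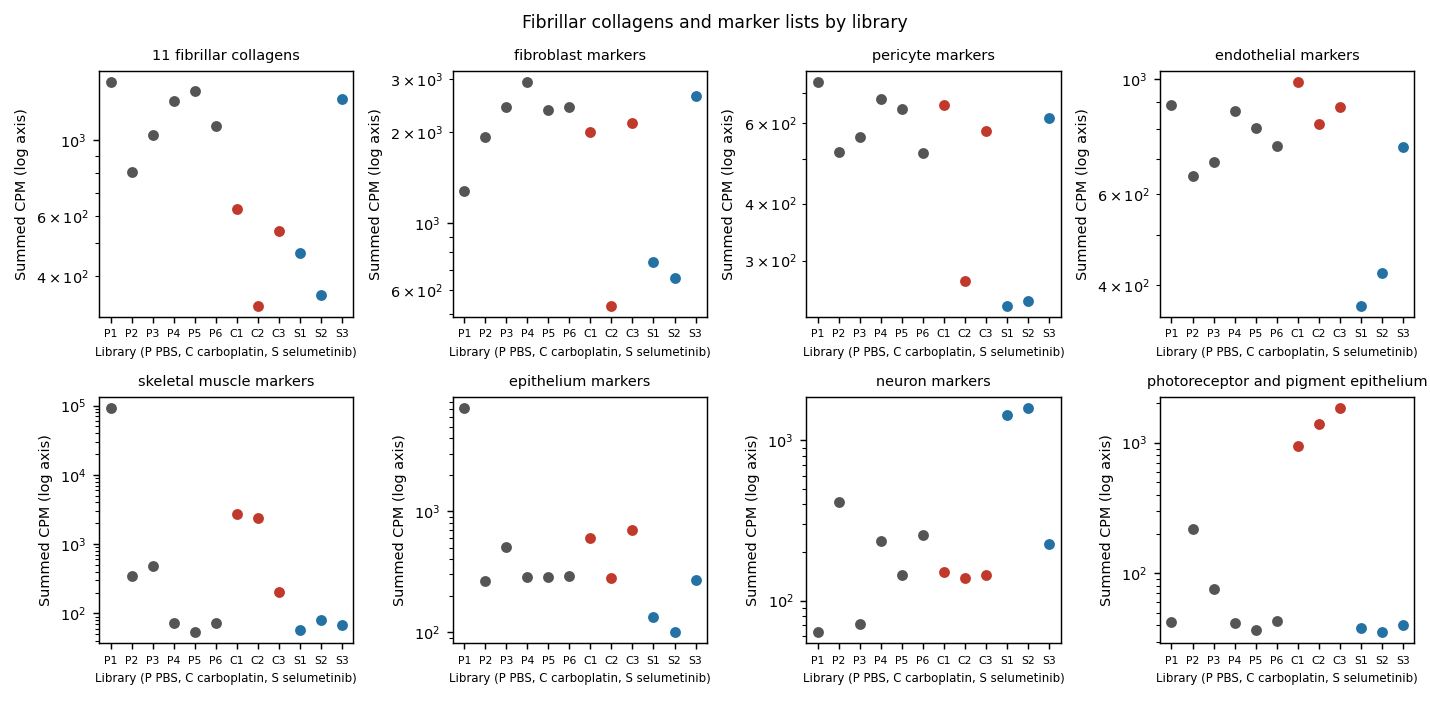
Summed CPM of the 11 fibrillar collagens and of 7 marker lists (panels, log axes) in each of the 12 libraries, coloured by treatment. Fibroblast markers were at 533 CPM in carboplatin 2 and at 2003 and 2141 in carboplatin 1 and 3, whereas fibrillar collagens were low in all 3. Skeletal muscle and epithelium markers peak in PBS 1, neuron markers in selumetinib 1 and 2, and photoreceptor markers in carboplatin.

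Fibroblast markers are the list closest to the fibrillar collagens by known source, and the fit called 0 of 15 in any comparison. They summed to 1274 to 2933 CPM in PBS, with none at 0 in any library. After carboplatin 13 of the 15 had a negative fold change, with a median of -0.47, and 3 of 15 lay below all PBS libraries, against 5.23% of all genes and 9 of the 42 collagens. In sum, carboplatin 1 and 3 lay inside the PBS range at 2003 and 2141, while their fibrillar collagens, 629 and 542 CPM, lay below PBS. Selumetinib 1 and 2 were below the PBS range in both measures, and selumetinib 3 inside it in both. Of the other vascular lists, 0 of 14 endothelial, 0 of 10 pericyte and 0 of 7 smooth muscle markers were called against PBS in either drug, and 1, 0 and 2 were higher in carboplatin than in selumetinib. Of the glial lists, Opalin (oligodendrocyte, 1 of 12) was lower and Aldh1l1 (astrocyte, 1 of 10) higher in carboplatin than in either other group, and 0 of 8 precursor, 0 of 8 microglia and 0 of 8 Schwann cell markers were called. Schwann cell markers summed to 712 CPM in PBS 1 and 20.5 to 156 in the other PBS libraries. Of 12 skeletal muscle and 4 tested adipocyte markers 0 were called. Between the drugs 10 of 14 photoreceptor and pigment epithelium markers were higher in carboplatin, against 5.65% of all genes. Krt1, 1 of 12 epithelium markers, was lower, against 8.35% of all genes.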

How the data were processed

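The 12 libraries hold poly(A) RNA from mouse optic nerve. The authors deposited a table of raw counts per gene, and the submitters' processing notes name FastQC, Trimmomatic, STAR, HTSeq, DESeq2 and the build mm10. Versions, annotation and strand setting are not given in the sources used here. Exons of Col4a1, Col4a2, Col4a3, Col5a1, Col6a4, Col9a3, Col15a1 and Col22a1 overlap those of genes on the opposite strand. Not all reads counted for these members may be their own. Members are the genes whose symbol is Col, digits, a, digits, with 10 or more counts in at least 3 libraries. The members and lists were chosen with earlier results of these data known.

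All genes passing filterByExpr (minimum count 10, minimum total 15) were fitted in R 4.3.3 with edgeR 4.0.16, using TMM factors, 1 quasi-likelihood model of 3 groups over all 12 libraries (robust) and Benjamini-Hochberg adjustment over 18344 genes. A gene is called at an adjusted p under 0.05. The fit was tested on simulated data. The SE of a log2 fold change is its size divided by the square root of F. CPM are scaled by the TMM factors, and CPM per kb divide by the union of exons (GENCODE M21, GRCm38) or, as an alternative, the longest transcript. Depth was 21793052 to 33375754 counts per library, so a gene at 1 CPM rests on few reads.

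Values in every library are given for called members, the 4 highest per class by length-scaled level, up to 3 members per direction and comparison with the largest fold change, and Col4a1 to Col4a6. From 7 pathway lists up to 5 called genes, or those with the smallest p, are named. There were also 14 marker lists (fibroblast, endothelial, pericyte, smooth muscle, skeletal muscle, cartilage and bone, photoreceptor and pigment epithelium, Schwann cell, oligodendrocyte, precursor, astrocyte, microglia, neuron, adipocyte) and 1 epithelium list added after the data were seen. Alternatives were DESeq2 1.42.0, limma 3.58.1 voom (quality weights), upper-quartile or RLE scaling, other count filters, other control libraries, a replicate block and leaving out libraries. Promoter windows are from RefSeq (GRCm38.p6).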

Additional observations from a re-analysis of the deposited data

Results flagged for a closer look

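Among the 6 PBS libraries, 12 of the 42 collagen genes had 1 library farther from the rest than Dixon's 95% limit, where chance flags about 1 in 20 groups. In 9 of them PBS 1 was the high library. It held 95.6 CPM of Col15a1, a chain of basement membrane zones, against 12.1 to 17.5 in PBS 2 to 6, and 84.4 CPM of Col17a1, a hemidesmosome chain, against 0 to 0.393. Col14a1, a fibril-associated chain of dense connective tissue, was at 50.9 CPM against 4.62 to 11, and Col6a3, of the type VI filament, at 45.1 against 16.0 to 25.3. Col20a1 was at 22.3 CPM, Col7a1, the anchoring fibril chain, at 9.69, Col6a6 at 9.13, Col24a1 at 5.35 and Col4a3 at 3.26. PBS 1 was the low library for Col9a2, at 15.9 CPM, and Col9a3, at 7.68. PBS 2 was the high library for Col6a5, at 17.8 CPM. Skeletal muscle, epithelium, adipocyte and Schwann cell markers were also highest in PBS 1, and their part in these values was not tested.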

How the results depend on the processing

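Of 3183 gene values over 26 alternative fits, 2760 kept direction and side of the threshold, 128 passed it, 89 lost it, 200 moved and 6 reversed. For carboplatin against PBS (1 call), with the share of all genes called in the same fit in brackets, only the groups compared gave 3 calls (1.99%), PBS 1 to 3 as controls 0 (0.0387%), PBS 4 to 6 as controls 5 (12.3%), PBS 1 and selumetinib 1 and 2 left out 11 (15.9%), carboplatin 1 and 3 left out 0 (0.0712%), selumetinib 1 and 2 left out 2 (1.70%), PBS 1 and carboplatin 2 left out 3 (6.47%), DESeq2 9 (4.16%, of all genes in the table), limma voom with quality weights 18 (29.8%), and leaving out 1 library 0 to 6, the latter without PBS 1 (10.7%). For selumetinib against PBS (0 calls), DESeq2 gave 2 (6.44%) and voom 28 (55.4%). Leaving out 1 library gave 0 to 11, the latter without selumetinib 3 (21.6%). In all 3 comparisons the DESeq2 shares are of the 35275 genes in the table. They therefore cannot be set beside the shares of other fits, or beside those of the members, which all passed the count rule. For carboplatin against selumetinib (6 calls), upper-quartile factors gave 3 (12.7%), no filter 3 (7.12%), carboplatin 1 and 3 left out 0 (0.0560%), selumetinib 1 and 2 left out 0 (0.0255%), DESeq2 11 (13.1%), voom 22 (58.8%) and leaving out 1 library 1 to 11, the latter without PBS 1 (33.0%). The removals of selumetinib 1 and 2 and of PBS 1 and carboplatin 2 were chosen after seeing the data, and where a removal left 1 library in a group it was assumed to vary like the others. Voom gave PBS 1 a weight of 0.0777 and selumetinib 3 one of 0.166, the lowest of the 12. The replicate block gave 0 calls in each comparison, with correlations of same-numbered libraries from -0.125 to 0.379, so the numbers were not taken to pair libraries. Col17a1 in carboplatin against PBS ranged from -3.44 to 3.28 with 1 library left out, and reversed to 3.28 without PBS 1, 3.50 with PBS 4 to 6, 3.27 without PBS 1 and selumetinib 1 and 2, 3.70 without PBS 1 and carboplatin 2, and 3.99 with voom. Col1a2 in carboplatin against selumetinib reversed to 0.76 with voom. Apart from PBS 1, whose removal reversed Col17a1, the cause of these moves was not tested. The longest transcript as length moved 12 of 42 levels by more than 1 SD. DESeq2 gave no adjusted p for 2 members in each comparison. With a common dispersion of 0.272 and 3 libraries per treated group, smaller differences could not be resolved.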

Other observations

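Of the collagen symbols outside the 42, Col19a1 was found mostly in 1 library, with 120 counts (4.26 CPM) in selumetinib 2, 14 in selumetinib 1 and 0 in selumetinib 3, against 0 to 5 in PBS and 2 to 8 in carboplatin. Col10a1, the chain of hypertrophic cartilage, had at most 5 counts in any library.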
